A study of Mus musculus with 6 samples.

Results

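Chemokines are small secreted proteins that attract cells, and their receptors are G protein-coupled receptors. All genes with a symbol beginning with Ccl, Cxcl, Ccr or Cxcr and a digit were taken, with Cx3cl1, Cx3cr1, Xcl1, Xcr1 and Ackr1 to Ackr4. The array annotation paired 57 probe sets with exactly 1 such symbol, and these covered 56 genes of 22180 measured. Ccl27a had 2 probe sets, and the one with the higher mean stood for the gene. The 56 genes are 19 CC ligands, 13 CXC ligands, the ligands Cx3cl1 and Xcl1, 10 CC receptors, 6 CXC receptors, the receptors Cx3cr1 and Xcr1, and 4 atypical receptors. Ccl19, Ccl27b and the copies of Ccl21 were not analysed here as members.

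The arrays measured amygdala RNA of male mice of C57BL/6N background aged 10 to 15 weeks. One group were wild type littermates (WT, n = 3 pools) and the other mice lacked IP3K-A, the neuronal kinase that phosphorylates inositol trisphosphate (KO, n = 3 pools). Each array read RNA pooled from several mice, so differences between mice within a pool are not seen, and neither labels nor methods describe a deletion limited to a cell type. All values are log2 intensities, as the deposited table gives them, so a difference of 1 is a 2-fold difference in signal. Probe sets differ in brightness for reasons of sequence, so levels of different genes are not ranked as amounts of RNA.

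CC chemokines have a pair of adjacent cysteines near their start, CXC chemokines have 1 residue between these cysteines, and Cx3cl1, or fractalkine, has 3. The receptors signal through inhibitory G proteins and release beta-gamma subunits that activate phospholipase C and phosphoinositide 3-kinase, so they act upstream of inositol trisphosphate. Atypical receptors bind chemokines without this signaling and remove or carry them. In the brain, neurons make fractalkine and microglia carry its receptor, Cxcl12 and Cxcr4 guide migrating cells, and most inflammatory chemokines are induced only on injury or infection.

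Itpka, the gene of IP3K-A, had lower signal in every KO pool (6.76, 6.95 and 6.96) than in any WT pool (8.85, 8.90 and 8.96), with an adjusted p of 0.000261 from limma. The 6 arrays had medians of 6.49 to 6.52. Neuron markers were above the array median in 7 of 7 genes, and markers of GABAergic and central amygdala neurons in 10 of 11. On other markers 1 library stood apart: choroid plexus markers had a mean of 8.40 in KO 1 against 6.93 to 7.27 in the other 5 pools, and Ttr, the transthyretin gene of that epithelium, was 13.001 in KO 1 and 9.18 to 10.42 elsewhere. Markers of striatal projection neurons had lower values in KO in 8 of 8 genes, with pool means of 8.88, 9.001 and 8.46 in WT and 8.30, 8.35 and 8.82 in KO. On these markers WT 3 and KO 3 each lay apart from their own group, and KO 3 lay above WT 3. In such tissue RNA, fewer cells of a type and less RNA per cell cannot be told apart.

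After adjustment over the 23521 probe sets that limma tested, no chemokine or receptor gene had a p under 0.05, whereas 2 of 22180 genes (0.00902%) did. The smallest adjusted p among the 56 was 0.61, that of Ccr3. At an unadjusted p under 0.05, 9 genes stood out, Ccl17, Ccr3, Ccr10 and Cxcl5 with higher signal in KO and Ccl4, Ccl24, Ccl26, Ccr7 and Ccr1 with lower signal. That is 16.1% of the 56 genes, beside 6.52% of all genes. By direction, the 4 higher genes stand beside a share of 3.16% and the 5 lower ones beside 3.36%. With the methods' t-test 5 of the 56 passed this threshold, beside 6.38% of all genes, and 0 passed after adjustment. Without KO 1, 4 of the 9 passed it and Ccl5 was added, and without KO 3, 5 of the 9 passed it. Each of the 9 except Ccr3, Ccr7, Ccr1 and Cxcl5 was lost when at least 1 pool was left out, and Ccr1 was lost, with Ccl26, when limma used an intensity trend and robust estimation.

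In 10 genes WT and KO pools were fully separate (17.9%), close to the 13.7% of all genes. These were Ccl17, Ccl25, Cxcl5 and Ccr3 in the higher direction (all genes, 7.54%) and Ccl4, Ccl7, Ccl24, Ccl26, Ccr7 and Ccr1 in the lower (all genes, 6.16%). A 2-sided exact permutation test of 3 pools against 3 gives p = 0.1 at the smallest. Fully separate pools always give that value, so the test adds nothing for these 10. A fold change over 1.2 and a p under 0.1 before adjustment, which the methods required, was met by Ccr3, Ccl17 and Ccl26 with limma, 5.36% of the genes beside 3.01% of all. With the methods' t-test 2 genes met it, beside 1.82%.

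The genes were also split by signal, at the mean of the 6 array medians, 6.51. Above it lay 21 genes and below it 35, with Ccl3 (6.59) the last above and Cxcr1, which rounds to 6.51, the first below. The split depends on that level: at 6.94, the median over probe sets with 1 symbol, only 10 of the 56 lay above. Above 6.51, 3 of 21 genes had an unadjusted p under 0.05 (14.3%, all such genes 5.03%), and below it 6 of 35 did (17.1%, all such genes 8.68%). With limma the fold and p of the methods were met by 1 of 21 genes above (4.76%, all such genes 1.17%). Below it 2 of 35 met them (5.71%, all such genes 5.66%), so the share over all genes depended on the level. Pools did not overlap in 5 of 21 genes above (all such genes 15.7%) and 5 of 35 below (all such genes 10.8%). The median change was −0.01 above, where that of all genes was 0.01, and −0.02 below, where that of all genes was also −0.02. Below the array median it turned to 0.06 without WT 2. Changes of all 56 genes ran from −0.27 for Ccl26 to 0.35 for Ccr3, 26 of them higher and 30 lower in KO.

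**Figure D1:**
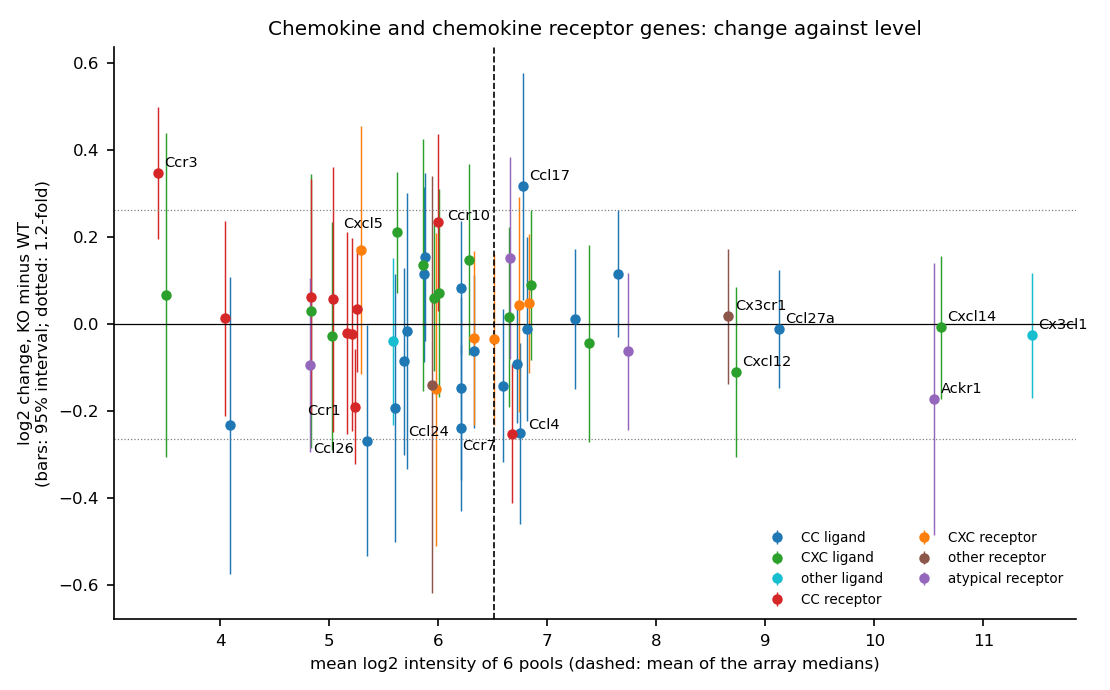
Each point is 1 of the 56 genes, with the mean log2 intensity of the 6 pools on the horizontal axis, the log2 change (KO minus WT) on the vertical axis and the 95% interval of limma as a bar, colored by role. Of the brightest genes, Cx3cl1 and Cxcl14 sit near 0 and Ackr1 lies at −0.17 (interval −0.48 to 0.14). Changes of up to 0.35 are found among genes near or below the array median of 6.51.

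Fractalkine and its receptor had overlapping signal in both genotypes, with narrow intervals. Cx3cl1, a membrane-bound chemokine of neurons, was the brightest of all 56 probe sets, at 11.42, 11.51 and 11.44 in WT and 11.39, 11.50 and 11.41 in KO. Its change was −0.03 (SE 0.06, 95% interval −0.17 to 0.12). Cx3cr1, which on microglia receives it, was 8.55, 8.73 and 8.67 in WT and 8.65, 8.71 and 8.66 in KO. Its change was 0.02 (SE 0.07, interval −0.14 to 0.17). Both groups overlapped in both genes, and both intervals lay inside a 1.2-fold change in either direction. Of 14 other microglia markers, 11 had lower and 3 higher values in KO (median change −0.07).

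Cxcl12 and its receptors also overlapped between genotypes. The signal of Cxcl12, which guides migrating neurons and blood stem cells, was 8.63, 8.92 and 8.80 in WT and 8.61, 8.68 and 8.72 in KO, a change of −0.11 (SE 0.08, interval −0.31 to 0.09). With 1 pool left out its change ran from −0.19 without WT 1 to −0.04 without WT 2. For its signaling receptor Cxcr4, WT pools were at 6.82, 6.70 and 6.90 and KO pools at 6.83, 6.86 and 6.87, all 3 KO pools inside the WT range. Ackr3, the atypical receptor that clears Cxcl12, was 7.63, 7.86 and 7.82 in WT and 7.69, 7.77 and 7.66 in KO, again inside the WT range. The intervals were −0.11 to 0.21 for Cxcr4 and −0.24 to 0.12 for Ackr3.

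The other bright genes overlapped between genotypes as well. Cxcl14, a chemokine of epithelia and neurons, was 10.71, 10.57 and 10.57 in WT and 10.56, 10.69 and 10.57 in KO, a change of −0.01 (SE 0.07). The skin chemokine Ccl27a, a ligand of Ccr10, was 9.16, 9.11 and 9.13 in WT and 9.14, 9.16 and 9.06 in KO, a change of −0.01 (SE 0.06). Its second, dimmer probe set had a change of −0.17 (SE 0.18). Some probe sets paired with 5 symbols, Ccl27a among them, had the same values as the brighter one. The signal of the brighter one can therefore not be ascribed to Ccl27a alone. Ackr1, the Duffy antigen receptor of red cells and venules, was 10.54, 10.69 and 10.68 in WT and 10.15, 10.67 and 10.58 in KO. Here KO 1 was the lowest pool by far, and the change of −0.17 (SE 0.13) was −0.01 without it. KO 1 was also the pool with the high choroid plexus markers, whose part in this value was not tested.

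Of 19 CC ligands, 13 had lower and 6 higher values in KO (median change −0.06). Of these, 4 had an unadjusted p under 0.05 with limma (21.1%, all genes 6.52%), Ccl4, Ccl24 and Ccl26 lower and Ccl17 higher. With the methods' t-test only Ccl24 passed, beside 6.38% of all genes. Ccl17, which attracts T cells through Ccr4, had the largest change of a ligand. It was 6.40, 6.60 and 6.86 in WT and 6.95, 6.92 and 6.94 in KO, so the WT pools were spread widely and the KO pools lay together just above them. The change was 0.32 (SE 0.11, interval 0.06 to 0.58, limma's adjusted p = 0.73), that is 1.25-fold. Without WT 1, the lowest pool, it was 0.21.

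Ccl22, the second ligand of Ccr4 and a near neighbor of Ccl17 with Cx3cl1 between them, did not share this pattern. Its signal was 5.72, 5.90 and 5.54 in WT and 5.85, 5.83 and 5.44 in KO, a change of −0.02 (SE 0.14, interval −0.33 to 0.30). Ccr4 itself was 4.97, 4.85 and 5.19 in WT and 4.82, 5.10 and 5.27 in KO, a change of 0.06 (SE 0.13). Both overlapped between genotypes, and without KO 3 both signs turned, to 0.12 for Ccl22 and −0.05 for Ccr4. Without KO 1 the change of Ccr4 was 0.18.

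The upstream sequences of Ccl17 and Ccl22 are shown because these neighbors serve 1 receptor and differed in value. They are the 250 bases before the annotated start of each gene, from RefSeq in build GRCm38.p6, at chr8:94810203-94810452, plus strand, and chr8:94745434-94745683, plus strand. Capitals mark matches, on either strand, to TATAAA (the TATA box), GGG and TTTCC with 2 bases between (a kappaB site), TTC and GAA with 3 bases between (a STAT site), TTC and GAA with 4 bases between (a STAT6 site) or TGANTCA (an AP-1 site).
Ccl17: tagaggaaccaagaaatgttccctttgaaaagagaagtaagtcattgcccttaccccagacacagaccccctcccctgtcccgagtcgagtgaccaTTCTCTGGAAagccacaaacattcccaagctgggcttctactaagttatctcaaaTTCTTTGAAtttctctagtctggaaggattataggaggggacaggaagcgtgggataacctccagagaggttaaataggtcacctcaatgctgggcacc
Ccl22: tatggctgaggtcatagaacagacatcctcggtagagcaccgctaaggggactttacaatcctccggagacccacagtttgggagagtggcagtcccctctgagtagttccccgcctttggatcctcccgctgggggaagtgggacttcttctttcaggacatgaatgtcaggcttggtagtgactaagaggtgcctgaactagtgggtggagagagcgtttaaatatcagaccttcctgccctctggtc
Ccl17 held 1 match to the STAT6 site, 154 to 145 bases before the start, and 1 to the STAT site, 99 to 91 bases before it, while Ccl22 held no match to these letters. STAT6 is a factor through which interleukin 4 acts. Whether these matches bear on the values of Ccl17 or Ccl22 was not tested. Upstream windows were at hand for 42 of the 56 genes. Among genes with an unadjusted p under 0.05 in limma, Ccl4, Ccl24, Ccl26, Ccr7, Ccr10 and Cxcl5 had no window and were not searched. Of the 42, Ccl17 alone matched the STAT6 site (2.38%), against 5.86% of 27025 genes, and 4 matched the STAT site (9.52%), against 7.18%. These 2 patterns cannot both start at the same base.

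The eotaxins, which call eosinophils through Ccr3, were lower in KO by value. Ccl24 was 6.20, 6.46 and 6.30 in WT and 6.05, 6.15 and 6.04 in KO, and here too the groups did not overlap. Its change was −0.24 (SE 0.08, adjusted p = 0.73 from limma), and −0.17 without WT 2. Ccl26, its neighbor on the chromosome, was 5.40, 5.34 and 5.70 in WT and 5.05, 5.28 and 5.30 in KO, also without overlap. The change of −0.27 (SE 0.11, adjusted p = 0.74 from limma) was −0.16 without WT 3 and −0.19 without KO 1. Ccl11, from another cluster, was 6.24, 6.40 and 6.20 in WT and 6.00, 6.28 and 6.12 in KO, with overlapping groups and a change of −0.15 (SE 0.09), or −0.083 without KO 1.

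Ccr3, the receptor of these ligands, had the highest change and the lowest p of all 56 genes, in the opposite direction. It was 3.26, 3.29 and 3.20 in WT and 3.62, 3.51 and 3.66 in KO. The groups lay well apart, each with little spread, although this was the dimmest of the 56 probe sets. Its values lay far below the array median of 6.51, where signal can be close to background. Whether Ccr3 RNA was present was not tested. The change was 0.35 (SE 0.07, interval 0.20 to 0.50, limma's adjusted p = 0.61), that is 1.27-fold, and stayed between 0.32 and 0.39 with any 1 pool left out. Of 8 markers of eosinophils, basophils and mast cells, 5 were higher and 3 lower, 0 with an unadjusted p under 0.05, and their mean was 5.01 to 5.12 in WT and 5.05 to 5.13 in KO. All 8 lay below the array median.

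**Figure D2:**
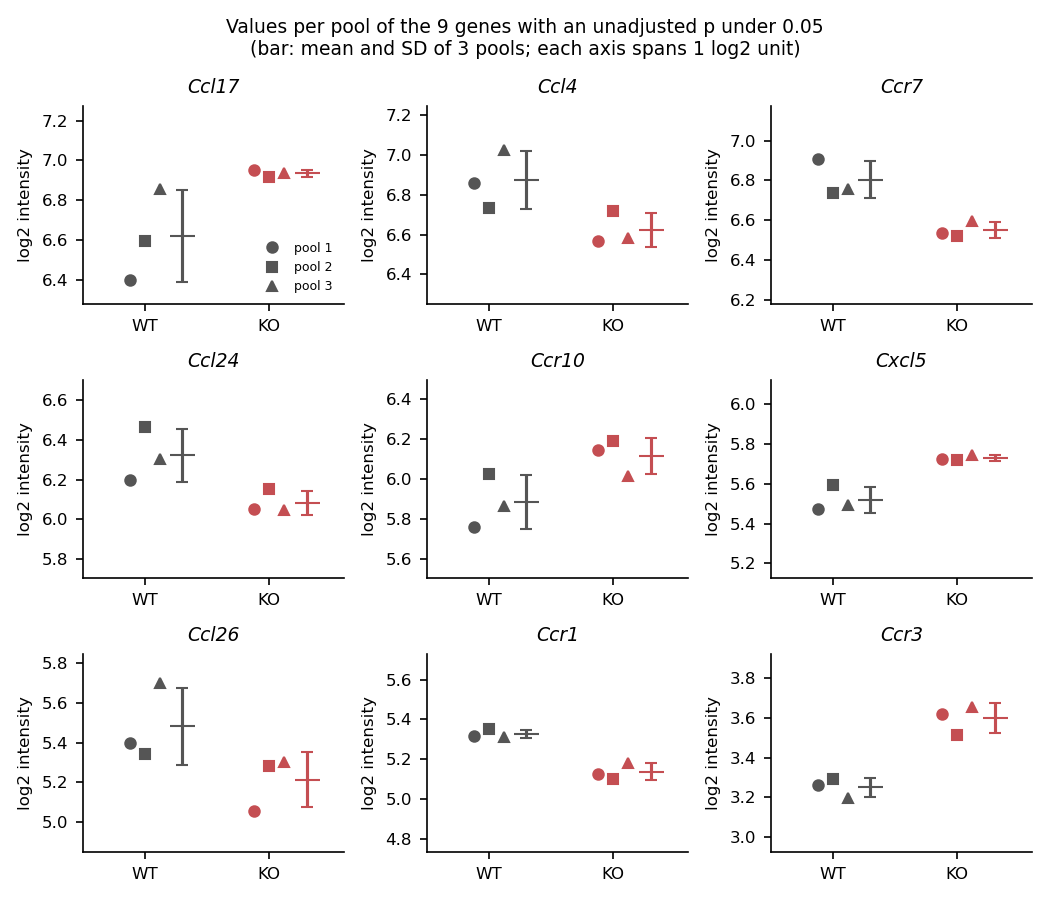
Log2 intensity of the 9 genes with an unadjusted p under 0.05, with gray symbols for WT pools, red for KO pools, shapes for the pool number, and a bar for the mean and SD of 3 pools. All axes span 1 log2 unit, so the wide WT spread of Ccl17 (6.40 to 6.86) can be set against the narrow one of Ccr1 (5.31 to 5.35).

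Ccr1, in the same receptor cluster, went the other way. This receptor of Ccl3 and Ccl5 on myeloid cells was 5.32, 5.35 and 5.31 in WT and 5.13, 5.10 and 5.18 in KO, with no overlap and the narrowest WT spread of the 9 genes (SD 0.02). Its change was −0.19 (SE 0.06, limma's adjusted p = 0.73), that is 1.14-fold, and −0.17 to −0.21 with any 1 pool left out. Between Ccr1 and Ccr3 lies Ccr1l1, a Ccr1-like gene, with a change of 0.01, and on the far side of Ccr3 lies Ccr2, the monocyte receptor, with 0.03. Probe sequences were not used here, so whether probe sets of such related genes read each other's RNA was not tested.

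The upstream sequences of Ccr3 and Ccr1 are shown as a pair of neighboring receptors with opposite changes. They lie at chr9:124021721-124021970, plus strand, and chr9:123968693-123968942, minus strand, in RefSeq's GRCm38.p6, with the same capitals as above.
Ccr3: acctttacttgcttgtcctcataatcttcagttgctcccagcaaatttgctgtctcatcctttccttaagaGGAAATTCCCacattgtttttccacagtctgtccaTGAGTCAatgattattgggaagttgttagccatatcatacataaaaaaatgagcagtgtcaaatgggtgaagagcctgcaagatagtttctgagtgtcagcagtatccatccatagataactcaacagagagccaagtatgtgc
Ccr1: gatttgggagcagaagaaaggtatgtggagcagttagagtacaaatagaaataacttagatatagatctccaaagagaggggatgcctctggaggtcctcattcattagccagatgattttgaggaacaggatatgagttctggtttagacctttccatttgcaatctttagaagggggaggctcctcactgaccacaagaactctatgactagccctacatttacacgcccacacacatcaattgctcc
The window of Ccr3 held a kappaB match on the other strand, 179 to 170 bases before the start, and an AP-1 match 144 to 138 bases before it. The window of Ccr1 held no match. NF-kappaB is the main inducer of inflammatory chemokines, and the kappaB letters were found in 6 of the 42 windows (14.3%), against 1.4% of all genes. The others with it were Ccl20, Ccl9, Cxcl1, Cxcl2 and Cxcl3, with changes of 0.08, 0.01, 0.06, −0.03 and 0.07, so Ccr3 was the only 1 of the 6 past an unadjusted p of 0.05. TATAAA was found in 13 windows (31%, all genes 13%) and TGANTCA in 4 (9.52%, all genes 6.87%). A match is only a match of letters.

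Of the other CC receptors, Ccr7 was lower and Ccr10 higher in KO by value. Ccr7, which leads T cells and dendritic cells to lymph nodes, was 6.91, 6.74 and 6.76 in WT and 6.54, 6.52 and 6.59 in KO. The highest KO pool was under the lowest WT pool, the change was −0.25 (SE 0.07, adjusted p = 0.73 from limma), and it was −0.20 to −0.28 with any 1 pool left out. Its ligands Ccl19 and Ccl21 had only probe sets shared by several genes: 13 for Ccl19 (9 with distinct values), with changes of −0.13 to 0.04, and 9 for Ccl21 (5 with distinct values), all higher by value, by 0.10 to 0.20, with 0 of either at an unadjusted p under 0.05. Markers of T and NK cells were lower in 6 of 7 genes and those of B cells in 4 of 4. Only 1 of the 7 and 1 of the 4 lay above the array median. Of all genes below it, 5178 of 9058 had lower values in KO. B cell markers had a mean of 5.83 to 6.06 in WT and 5.76 to 5.78 in KO. Ms4a1, the gene of CD20, was among them, with a change of −0.28. Their part in the value of Ccr7 was not tested.

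Ccr10, a receptor of skin and mucosal lymphocytes, was 5.76, 6.03 and 5.87 in WT and 6.14, 6.19 and 6.02 in KO, where KO 3 fell just under WT 2. The change was 0.23 (SE 0.09, adjusted p = 0.73 from limma), and 0.17 without WT 1. Its mucosal ligand Ccl28 had a change of −0.01, like Ccl27a. The remaining CC receptors Ccr2, Ccr4, Ccr6, Ccr8, Ccr9 and Ccr1l1 had changes between −0.02 and 0.06, all with overlapping groups. All of these 6 lay below the array median.

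**Figure D3:**
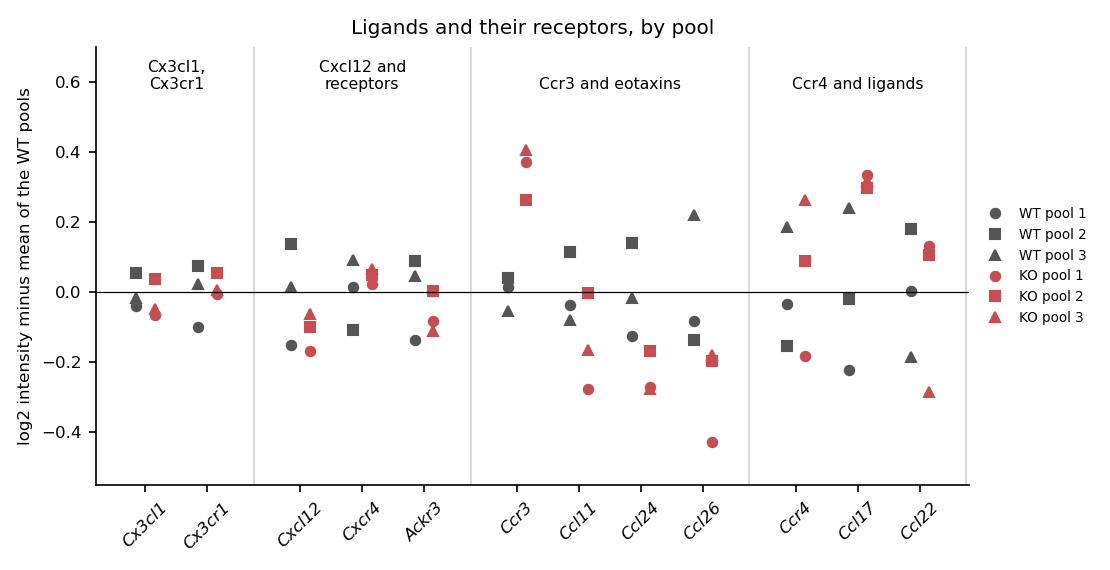
Log2 intensity of each pool minus the mean of the 3 WT pools, for 4 sets of ligands and receptors (gray WT, red KO, shapes for the pool number). Pools of Cx3cl1 and Cx3cr1 mix near 0, those of Ccr3 separate upward, and the KO pools of Ccl24 and Ccl26 lie below their WT pools.

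Ccl4 and Ccl3 are adjacent genes of inflammatory chemokines that activated microglia and macrophages make. Ccl4 was 6.86, 6.74 and 7.03 in WT and 6.57, 6.72 and 6.58 in KO, with no overlap by a small margin between WT 2 and KO 2. Its change was −0.25 (SE 0.09, adjusted p = 0.73 from limma), and −0.17 without WT 3. For Ccl3 the pools were 6.79, 6.59 and 6.62 in WT and 6.49, 6.48 and 6.60 in KO, a change of −0.14 (SE 0.08) with overlapping groups. C1qb, a complement gene of microglia, was the 1 marker of 14 with an unadjusted p under 0.05 in limma (all genes, 6.52%), at −0.33. The mean of these markers was 8.03 to 8.08 in WT and 7.95 to 8.01 in KO, and their part in the values of Ccl4 and Ccr1 was not tested.

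Several ligands lie side by side, and within some clusters the values leaned 1 way. Ccl2, Ccl7, Ccl11, Ccl12, Ccl8 and Ccl1, mostly attractants of monocytes and eosinophils, all had lower values in KO, with changes of −0.06, −0.09, −0.15, −0.23, −0.19 and −0.09. None of the 6 had an unadjusted p under 0.05 with limma or with the methods' t-test. The cluster is described because its values share a direction, so that direction is no separate result. With 1 pool left out the changes stayed below 0 but moved widely, from −0.131 to −0.022 for Ccl2, from −0.392 to −0.130 for Ccl12, from −0.337 to −0.116 for Ccl8 and from −0.159 to −0.023 for Ccl1. In another cluster, Ccl5 (0.11), Ccl9 (0.01) and Ccl6 (0.15) were higher by value and Ccl3 and Ccl4 lower. Ccl7 was the 1 gene of the first cluster without overlap, at 6.77, 6.83 and 6.71 in WT and 6.67, 6.68 and 6.69 in KO. The gap between the groups was small against its change of −0.09 (SE 0.06).

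**Figure D4:**
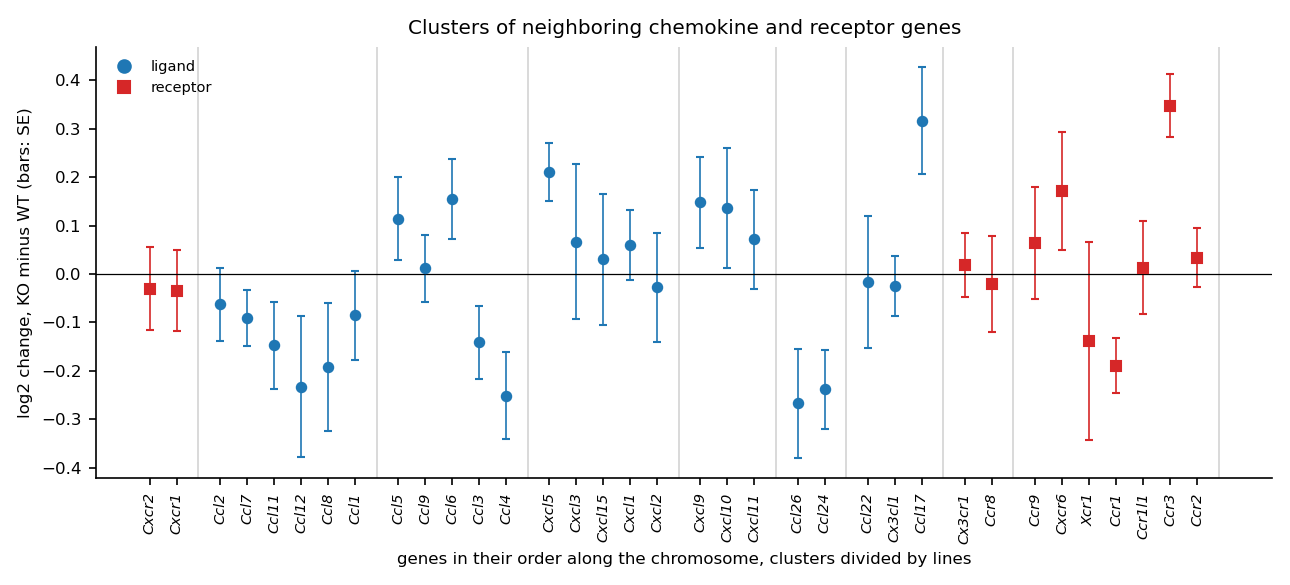
Log2 change (KO minus WT) of genes that lie in clusters, in chromosomal order with lines between clusters, with bars for the SE of limma, blue circles for ligands and red squares for receptors. The 6 genes from Ccl2 to Ccl1 all lie below 0, Cxcl9, Cxcl10 and Cxcl11 lie above it, and Ccr3 (0.35) and Ccr1 (−0.19) stand on opposite sides within 1 cluster.

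Of 13 CXC ligands, 9 had higher and 4 lower values in KO (median change 0.06). Cxcl5 was the only 1 with an unadjusted p under 0.05 in limma (7.69%, all genes 6.52%). Cxcl5, which attracts neutrophils through Cxcr2, was 5.47, 5.59 and 5.49 in WT and 5.72, 5.72 and 5.75 in KO. The KO pools lay close together above all WT pools, with a change of 0.21 (SE 0.06, limma's adjusted p = 0.73), that is 1.16-fold, and 0.19 to 0.25 with any 1 pool left out. Its relatives Cxcl1, Cxcl2, Cxcl3 and Cxcl15 had overlapping groups and changes between −0.03 and 0.07. The neutrophil receptors Cxcr1 and Cxcr2 each had a change of −0.03. Neutrophil markers were lower in 8 of 8 genes, with a mean of 5.36 to 5.40 in WT and 5.18 to 5.24 in KO, and all were below the array median. Of these, Ly6g had the largest change, at −0.64. Their part in the value of Cxcl5 was not tested.

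The interferon-induced ligands of Cxcr3 were higher by value, Cxcl9 by 0.15, Cxcl10 by 0.14 and Cxcl11 by 0.07, with overlapping groups. With 1 pool left out these changes ran from 0.070 to 0.225 for Cxcl9, from 0.0066 (without WT 3) to 0.269 (without WT 1) for Cxcl10 and from −0.037 to 0.161 for Cxcl11. Cxcl10 was 6.06, 5.79 and 5.53 in WT and 5.96, 5.94 and 5.88 in KO, so its WT pools spanned the KO pools. Cxcr3, their T cell receptor, had a change of 0.04. Cxcl13, which attracts B cells, had 0.02 and its receptor Cxcr5 −0.15, which turned to 0.021 without KO 1, the lowest pool of Cxcr5. Cxcl16 had −0.04 and its receptor Cxcr6 0.17, and the mucosal chemokine Cxcl17 had 0.09, all with overlapping groups.

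Ccl25 and its receptor Ccr9 bring T cells to thymus and gut. Ccl25 was 7.61, 7.52 and 7.64 in WT and 7.66, 7.75 and 7.70 in KO, just without overlap, with a change of 0.12 (SE 0.06, interval −0.03 to 0.26), and Ccr9 had a change of 0.06. Ccl20 had 0.08 and its receptor Ccr6 −0.02, with overlap in both. Xcl1, a ligand from T and NK cells, had −0.04 and its dendritic cell receptor Xcr1 −0.14 (SE 0.21, the largest SE of the 56). The atypical receptors Ackr2, a scavenger of CC chemokines, and Ackr4, a scavenger of Ccl19 and Ccl21, had 0.15 and −0.09, both with overlap.

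The precision differed with the level. The median SE was 0.08 among the 21 genes above the array median and 0.09 among the 35 below it. The 95% interval of limma lay wholly inside a 1.2-fold change in either direction in 12 of the 21 and 10 of the 35 genes. For the remaining genes the interval reached past that size in at least 1 direction, so that 3 pools a group left such a change undecided.

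Genes that act behind the receptors had changes on both sides of 0. Of 53 listed signaling genes, such as G protein subunits and kinases, 43 were measured, 25 with higher and 18 with lower values in KO (median change 0.02). With limma 3 had an unadjusted p under 0.05, all lower. Was, a regulator of actin in blood cells, was 6.18, 6.18 and 6.15 in WT and 5.93, 6.02 and 5.90 in KO, a change of −0.22 (SE 0.06). Pik3cd, a leukocyte phosphoinositide 3-kinase, had −0.28 (SE 0.10) and Fgr, a myeloid tyrosine kinase, −0.26 (SE 0.10). That is 3 of 43 lower, beside 3.36% of all genes. With the methods' t-test 5 of the 43 passed, beside 6.38% of all genes, namely Was and, with higher values in KO, Stat5b (0.11), Plcb1 (0.06), Plcb4 (0.12) and Grk3 (0.10). Pools did not overlap in 7 genes with higher values (all genes, 7.54%) and 3 with lower ones (all genes, 6.16%). Of 17 other chemoattractants and chemokine-handling genes 6 were higher and 11 lower, and of 14 inducers, such as cytokines and NF-kappaB genes, 6 were higher and 8 lower, with 0 of either at an unadjusted p under 0.05.

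Vessel markers bear on chemokine genes of the vessel wall such as Cxcl12 and Ackr1. Of 9 endothelial markers 4 were higher and 5 lower (median change −0.006), and of 8 mural and fibroblast markers 5 were higher and 3 lower (median change 0.11). The largest endothelial change was a lower value, that of Cldn5 (−0.21, SE 0.12), with overlapping groups. Among mural and fibroblast markers the lowest change was −0.14, that of Kcnj8. Markers with an unadjusted p under 0.05 in limma were the endothelial genes Tek (0.17) and Cdh5 (0.16) and the pericyte gene Rgs5 (0.19). All were higher in KO, beside 3.16% of all genes. These and Slco1a4 (0.15) were the 4 without overlap, also higher, beside 7.54% of all genes. Their part in the values of Cxcl12 and Ackr1 was not tested. Of 8 markers of border macrophages and monocytes 4 were higher and 4 lower (median change −0.03), and all 8 lay below the array median. The largest changes each way were 0.30 for the mannose receptor gene Mrc1 and −0.18 for Plac8.

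**Figure D5:**
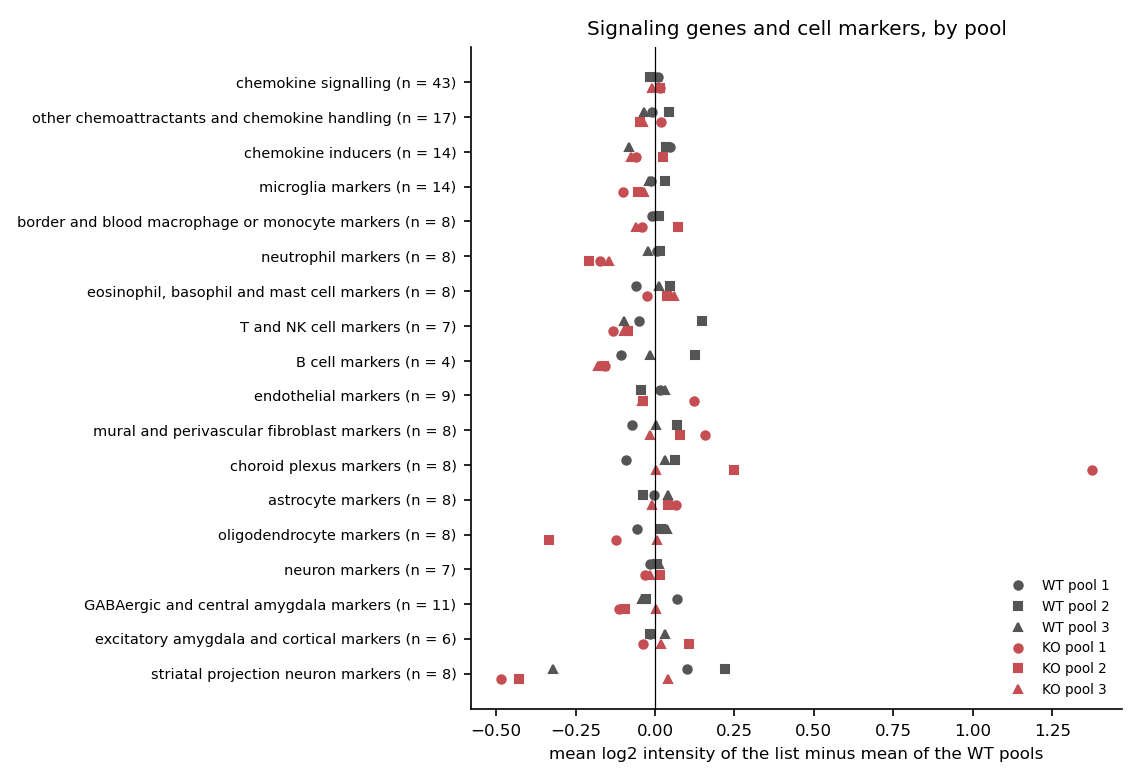
Mean log2 intensity of each gene list minus the mean of the 3 WT pools, by pool (gray WT, red KO, shapes for the pool number), with the number of measured genes in parentheses. Choroid plexus markers stand far out in KO 1, neutrophil and B cell markers lie lower in the KO pools, and the 43 chemokine signaling genes mix near 0.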

How the data were processed

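Affymetrix Mouse Gene 2.0 ST arrays were read for amygdala RNA from 3 WT pools and 3 KO pools. The authors deposited log2 values, obtained with GCOS and RMA, which corrects background, normalizes quantiles and summarizes the probes of a set (versions are not given in the sources used here). Here limma 3.58.1 (lmFit, then eBayes, R 4.3.3) estimated KO minus WT for each of 23521 probe sets that carry 1 symbol, and p-values were adjusted by Benjamini-Hochberg. A further 1820 probe sets with several symbols and 16004 with none were left out. Pools served as replicates, so p-values measure the spread between pools, and the number of arrays limits precision. Genes described in full had a p under 0.05 before adjustment, passed the fold and p of the methods, were among the 5 brightest, or were receptors or ligands of those. Pool values were also given for Ccl25 and Ccl7, whose groups did not overlap, and for Cxcl10, whose WT pools spanned the KO pools. Members, gene lists and tests were chosen with earlier results of these data known, and no list was tested as a group. Clusters follow gene order in GRCm38.p6 (gaps of at most 10 genes), and upstream windows are from RefSeq. Alternatives were the methods' t-test, an intensity trend with robust estimation, other centering, quantile normalization again, other probe set choices, array weights, a replicate block and leaving out each pool. The fits were tested on simulated data. Figures were drawn with matplotlib 3.10.9.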

Additional observations from a re-analysis of the deposited data

How the results depend on the processing

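No gene passed an adjusted p under 0.05 with limma under any alternative run, so no such call was lost or gained. At an unadjusted p under 0.05 the count of 9 was 5 with the methods' t-test, without Ccl17, Ccl26, Ccl4 and Ccr10, and 5 to 9 with any 1 pool left out. It was 7 with an intensity trend and robust estimation (without Ccl26 and Ccr1), 8 with quantile normalization repeated or with all probe sets tested (without Ccl26), and 9 with array weights, where Ccl17 was lost and Ccl12 gained. Past the thresholds of the methods the count of 3 ran from 2 (without KO 1) to 7 (without WT 2), and genes without overlap from 13 to 17, since smaller groups overlap less. The median change below the array median was 0.035 with array weights and −0.042 to 0.060 with 1 pool left out, and above it −0.030 to −0.0041. Same-numbered pools had correlations of −0.03, 0.09 and −0.01, and other pairs of a WT and a KO pool −0.08 to 0.10. With 3 pools a group, this cannot settle whether the numbers pair them. The fit with a replicate block gave 10 genes, the same 9 and Ccl12. Array weights turned the sign of Ccl22 (0.035), Ccr1l1 (−0.039), Ccr8 (0.053), Cxcl14 (0.0090), Cxcl16 (0.0013), Cxcl2 (0.054), and centering on array medians that of Cxcl14 (0.00073). With 1 pool left out the sign turned in 25 genes, none among the 9, and their changes ran as follows: Ccl22 −0.109 to 0.118, Ccl27a −0.029 to 0.016, Ccl28 −0.092 to 0.065, Ccl9 −0.044 to 0.048, Ccr1l1 −0.056 to 0.091, Ccr4 −0.045 to 0.176, Ccr6 −0.080 to 0.063, Ccr8 −0.093 to 0.074, Ccr9 −0.068 to 0.148, Cx3cl1 −0.057 to 0.0018, Cx3cr1 −0.030 to 0.056, Cxcl11 −0.037 to 0.161, Cxcl13 −0.065 to 0.071, Cxcl14 −0.048 to 0.040, Cxcl15 −0.102 to 0.172, Cxcl16 −0.103 to 0.057, Cxcl2 −0.157 to 0.068, Cxcl3 −0.077 to 0.239, Cxcr1 −0.080 to 0.048, Cxcr2 −0.080 to 0.044, Cxcr3 −0.016 to 0.163, Cxcr4 −0.0057 to 0.093, Cxcr5 −0.248 to 0.021, Xcl1 −0.106 to 0.011, Xcr1 −0.295 to 0.060. Where only probe sets above the array median were tested (13685), 21 of the genes entered, 3 of them with an unadjusted p under 0.05. The cause of these shifts was not tested.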
